A study of Saccharomyces cerevisiae with 164 samples.

Results

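The genes of mitochondrial respiration and of the tricarboxylic acid (TCA) cycle were followed across budding yeast strains that carry mutant histone H3. The set held 49 nuclear genes, listed by systematic name, among the 6692 genes counted in the full-length RNA libraries. They encode cytochrome c, subunits of complexes II to V, NADH dehydrogenases, TCA cycle enzymes and the activator HAP4. In the 3′-end libraries, 45 of the 49 were among the 5013 transcripts counted, and 44 had enough counts to be tested. COX4, COX6, ATP2 and ATP14 had no transcript of their own there, and the QCR9 transcript covered its 5′ end alone and held at most 1 count in a library.

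All strains were MATa and lacked both chromosomal H3-H4 gene pairs, with mutant leu2, ura3 and trp1 alleles and his3+. They lived on a pair of centromere plasmids. The TRP1 plasmid encoded H3 with L127A and L131V, here H3X, and the LEU2 plasmid encoded H3 with L110I, A111W and L131I, here H3Y; the paired changes serve to make the 2 kinds of H3 join each other in a nucleosome. The pseudo-wild-type carried these changes and no other. A mutant strain had its mutation on H3X, on H3Y, or on both, which is called symmetric here and "double" in the labels. The strain labels place HHF2, one of the H4 genes, on the LEU2 plasmid of every pseudo-wild-type, and HHF1 on that of every mutant in the 3′-end libraries, so taken at their word the labels leave the H3 change and the H4 gene copy of those comparisons unable to be told apart. Cells grew in rich glucose medium (YEPD) to mid-log phase. There were 164 libraries of 21 mutants and the pseudo-wild-type. Of these, 98 were stranded full-length poly(A) libraries in 9 sequencing batches and 66 were 3′-end libraries in 2 batches. The full-length libraries held all 21 mutants. A symmetric strain was there for 13: R2K, K9R, K9Q, S10A, K14R, K14Q, K18R, K18Q, K27R, K27Q, K36Q, K37Q and K56R. The other 8 were on a single copy only: K4A, K4Q, K4R, K36R, T45A, K56Q, K79A and a deletion in the H3 tail. Each full-length mutant strain had 1 or 2 libraries. Each 3′-end batch held 6 pseudo-wild-type libraries and 3 libraries of each of 9 mutant strains, R2K, K36Q and K37Q in batch 10 and K14R, K18R and K56R in batch 11. Nothing in the labels says whether replicates came from separate cultures, so p-values measure the spread between libraries, which may be technical.

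Oxidation of acetyl groups in the TCA cycle yields NADH and succinate, whose electrons pass through NADH dehydrogenases or complex II to complex III, cytochrome c and complex IV, and the proton gradient so made drives the ATP synthase, complex V. Budding yeast has no proton-pumping complex I and uses the single-subunit enzymes Ndi1 inside and Nde1 and Nde2 outside the inner membrane. Cells growing on glucose ferment and keep these genes partly repressed. When glucose runs out, Hap4 joins the CCAAT-binding Hap2-Hap3-Hap5 complex and activates many of them. The enzymes of the first steps of the cycle, CIT1, ACO1, IDH1 and IDH2, also depend on the retrograde factors Rtg1 and Rtg3, which bind the sequence GTCAC, in cells whose respiration is impaired.

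The promoters of the members held the CCAAT letters more often than those of the other transcripts counted. The window was the 250 bases before the 5′ end of the deposited transcript, which left out CYC1, whose transcript starts inside the gene, and QCR9. CCAAT on either strand was in 35 of 43 member windows (81.4%) and in 1803 of 5013 windows of all transcripts (36%). The longer form ACCAATNA was in 14 of 43 (32.6%) against 202 of 5013 (4.03%). By role, CCAAT was in 10 of 10 windows of complex V, 7 of 8 of complex III, 6 of 7 of complex IV and 7 of 10 of the TCA cycle, and in neither the HAP4 nor the CYC7 window. GTCAC on either strand was in 16 of 43 member windows (37.2%) and in 1194 of 5013 (23.8%), and 7 of 8 complex III windows held it. The letters can overlap CACGTG, the motif of the factor Cbf1, so some matches lie on such motifs. These are matches of letters and not bound sites. In the R64 annotation ACO1 (YLR304C) lies at chrXII:735212-737548, IDH1 (YNL037C) lies at chrXIV:557920-559002, IDH2 (YOR136W) lies at chrXV:580250-581359 and LSC2 (YGR244C) lies at chrVII:978036-979319.

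The windows of 5 members are shown, those of the 3 TCA cycle genes that fell in the K56R strain, of LSC2, which rose there, and of QCR8, which also rose there. They were read from the R64 (sacCer3) genome, 5′ to 3′ on the gene's strand, with CCAAT and GTCAC in either orientation in capitals:
ACO1, chrXII:737598-737847, minus strand: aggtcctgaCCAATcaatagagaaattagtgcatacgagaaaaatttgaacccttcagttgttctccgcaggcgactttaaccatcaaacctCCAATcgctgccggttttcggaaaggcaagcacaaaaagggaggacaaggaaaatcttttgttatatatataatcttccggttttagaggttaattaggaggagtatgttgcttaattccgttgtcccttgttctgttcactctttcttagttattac
IDH1, chrXIV:559141-559390, minus strand: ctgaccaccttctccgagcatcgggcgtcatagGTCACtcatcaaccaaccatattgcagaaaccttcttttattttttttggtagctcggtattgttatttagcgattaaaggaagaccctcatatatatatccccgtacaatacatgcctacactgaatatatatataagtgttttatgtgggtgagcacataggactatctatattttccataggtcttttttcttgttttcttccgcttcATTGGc
IDH2, chrXV:579896-580145, plus strand: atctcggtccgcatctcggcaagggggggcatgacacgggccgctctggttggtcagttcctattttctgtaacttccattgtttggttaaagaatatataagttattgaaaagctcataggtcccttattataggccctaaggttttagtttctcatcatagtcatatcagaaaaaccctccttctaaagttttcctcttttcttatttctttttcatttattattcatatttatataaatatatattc
LSC2, chrVII:979428-979677, minus strand: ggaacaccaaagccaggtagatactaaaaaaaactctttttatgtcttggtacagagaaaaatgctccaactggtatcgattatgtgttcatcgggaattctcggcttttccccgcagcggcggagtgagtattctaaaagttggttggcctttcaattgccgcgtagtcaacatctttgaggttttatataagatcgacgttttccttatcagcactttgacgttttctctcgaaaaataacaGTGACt
QCR8, chrX:106088-106337, plus strand: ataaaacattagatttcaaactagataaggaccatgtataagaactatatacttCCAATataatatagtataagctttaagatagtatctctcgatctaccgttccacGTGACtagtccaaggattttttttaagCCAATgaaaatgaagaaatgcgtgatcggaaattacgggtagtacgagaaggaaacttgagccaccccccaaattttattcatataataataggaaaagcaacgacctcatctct
ACO1 held 2 CCAAT matches, IDH1 held 1 CCAAT and 1 GTCAC match, and IDH2, which encodes the partner subunit of Idh1, held 0 of either. LSC2 had 1 GTCAC match and 0 CCAAT. QCR8 had 2 CCAAT matches and 1 GTCAC match.

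Respiratory genes were among the well-expressed genes of these glucose-grown cells. In the full-length pseudo-wild-type, levels were taken as CPM, counts scaled to the library's normalised total, per kilobase of the counted gene (CPM per kb). For the members this length ran from gene start to gene end, introns included. All 49 members were above the median of all genes tested (46.3 CPM per kb), and the member median was 272.3. QCR6, the acidic hinge subunit of complex III, was highest at 912 ± 424 (SD, n = 3), then CYC1, the main cytochrome c, at 807 ± 318. ATP2, the catalytic beta subunit of ATP synthase, was at 691 ± 109.6, and IDH1 at 619 ± 134. These top 4 did not differ beyond their spread, and the order was not the same in each sample. In the sample of replicates 1 to 3, ATP2 was highest at 817, with CYC1 at 445 and QCR6 at 430. In replicates 4 and 5, QCR6 was highest at 1077 and 1228. COX5B, the low-oxygen form of complex IV subunit 5, was lowest at 53.3 ± 15.1, below its aerobic counterpart COX5A at 348 ± 176. NDI1, the internal NADH dehydrogenase, was at 94.2 ± 7.22 and HAP4 at 128 ± 33. CYC7, the low-oxygen cytochrome c, was at 143 ± 76.2. By role, the median of the gene means was highest for the pair of cytochrome c genes (475 CPM per kb), then complex V (322). It was lowest for complex II (126) and HAP4.

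**Figure D1:**
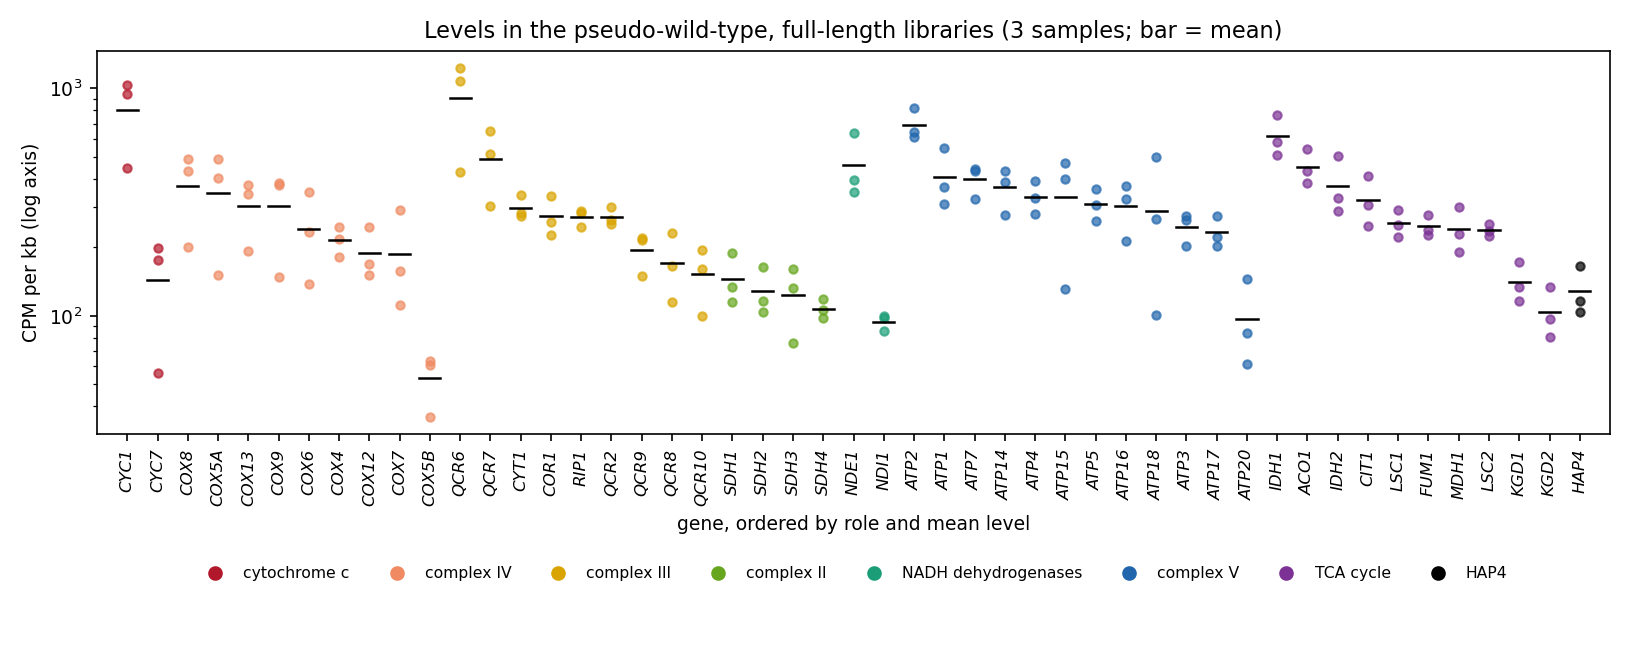
Level of each member in the full-length pseudo-wild-type, in CPM per kb of the counted gene, introns included, on a log axis, ordered by role. Points are the 3 samples (replicates 1 to 3 averaged as 1, replicates 4 and 5) and the bar is their mean; QCR6 is highest at 912 and COX5B lowest at 53.3.

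The 5 full-length pseudo-wild-type libraries were counted as 3 samples for the levels above. The full-length tests took all 5 as separate libraries. Replicates 1 to 3, labelled as batches 2, 3 and 4, differed by 1.15 to 2.76 times the sampling noise (chi-square per degree of freedom), against 8.73 to 301 for the 45 other full-length pairs. In the 3′-end data, replicates 3 and 4 of symmetric K56R differed by 1.59 times the noise, against 2.43 to 73.6 for the 83 other pairs. Where members were called, results that changed are therefore also given with pseudo-wild-type replicates 2 and 3 left out, or with K56R replicates 3 and 4 summed into 1. Full-length comparisons with no member called, S10A among them, are not given that way.

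Members are short genes, and libraries differed in how gene length related to counts. Their median coding length was 597 bases against 1194 for all genes, and 22 of the 49 were under 500 bases. For each library, a slope of log2 CPM on log2 coding length was fitted over the genes that are not members. It ran from −0.35 to 0.16 in the 3′-end libraries and from −0.50 to 0.44 in the full-length ones. The median of the short members followed it, with r = −0.88 over the 33 libraries of batch 10, r = −0.86 over the 33 of batch 11 and r = −0.93 over the 98 full-length libraries. For members of 500 bases or more, r was −0.35, −0.12 and −0.01. These are descriptions over libraries that share genes and depth. Each count of members below is therefore given from the fit without covariates and from a fit that adds each library's slopes on length and on adenine content.

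**Figure D2:**
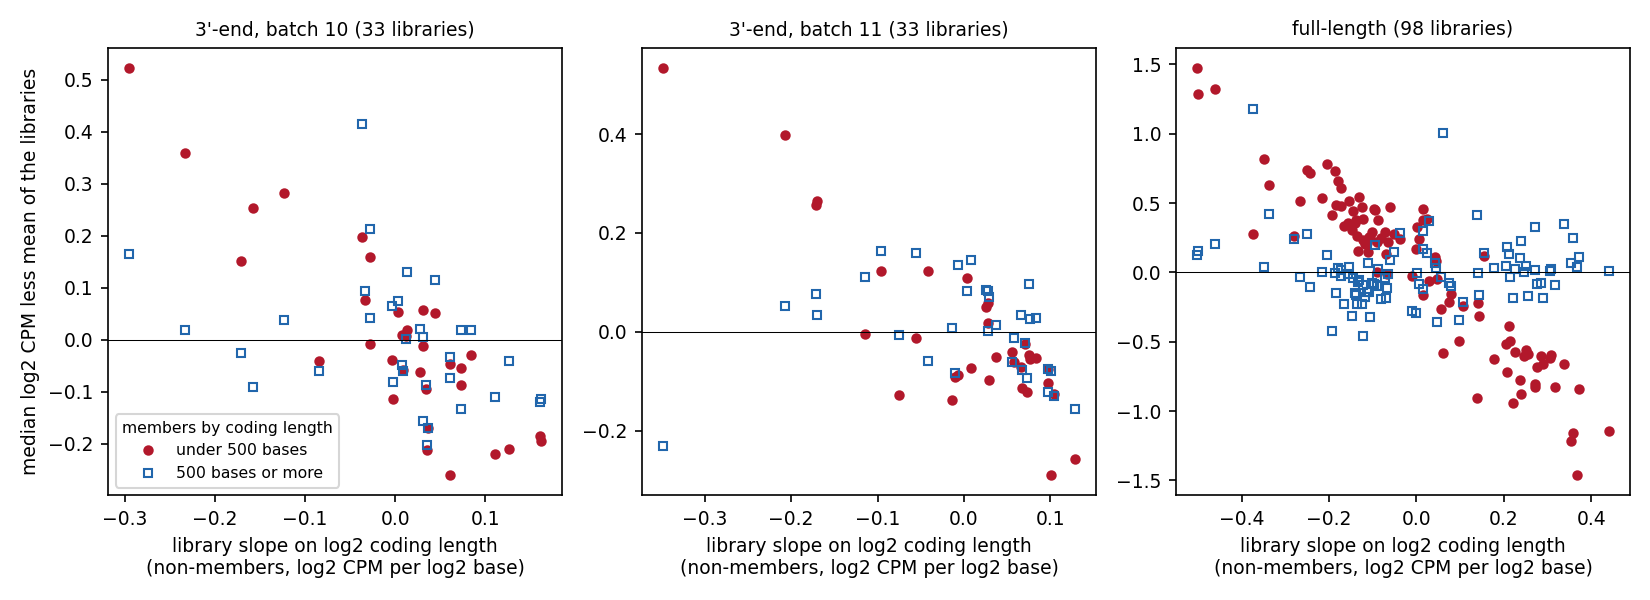
Median deviation of the members from their mean over the libraries (log2 CPM) against each library's slope on log2 coding length, 1 point per library, filled for the members under 500 bases and open for the longer ones. The short members fall as the slope rises in all 3 panels, with r between −0.93 and −0.86.

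In the symmetric K56R strain, the genes of citrate-to-oxoglutarate conversion fell while a later TCA cycle enzyme rose. Lysine 56 sits in the core of H3 and is acetylated on newly made histones. ACO1 (aconitase) and both subunits of NAD-dependent isocitrate dehydrogenase, IDH1 and IDH2, were lower than in the pseudo-wild-type, and LSC2 (beta subunit of succinyl-CoA ligase) was higher. Of the 44 members tested in the 3′-end libraries, 4 rose and 3 fell in edgeR's quasi-likelihood test with Benjamini-Hochberg adjustment at 0.05 over all genes. The background is 23.6% of all genes called (13.1% higher and 10.4% lower), and the 7 members called are no larger a share than that. The member median was −0.05 (log2). In RNA from whole cultures, fewer cells with a transcript and less of it per cell cannot be told apart.

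ACO1 was at 547, 554 and 617 CPM in the 3 symmetric K56R libraries, and at 704 to 928 with a median of 829 in the 6 pseudo-wild-type libraries. The groups did not overlap, and the log2 fold change was −0.53 ± 0.11 (SE, edgeR adjusted p = 0.000796). IDH2 was at 356, 369 and 377 CPM against 489.7 to 562, median 525, again with no overlap, a log2 fold change of −0.51 ± 0.09 (edgeR adjusted p = 0.000352). IDH1 was at 731, 738 and 681 CPM against 812 to 992, median 943, with a log2 fold change of −0.35 ± 0.09 (edgeR adjusted p = 0.00827). Aconitase turns citrate into isocitrate, which isocitrate dehydrogenase oxidises, so these 3 genes encode consecutive steps. With the library slopes, ACO1 (−0.51, edgeR adjusted p = 0.000149) and IDH2 (−0.49, edgeR adjusted p = 1.45e-05) kept their calls and IDH1 did not (−0.20, edgeR adjusted p = 0.115).

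The same genes were low in the strains with K56R on a single copy. ACO1 was at 625, 496 and 600.3 CPM with K56R on H3X and at 586, 633 and 685 with K56R on H3Y, all below the lowest pseudo-wild-type library. IDH2 was at 422, 386 and 434 CPM on H3X and 366, 393 and 414 on H3Y, likewise without overlap. Averaged over both single-copy strains, the log2 fold change against the pseudo-wild-type was −0.45 ± 0.08 for ACO1 (edgeR adjusted p = 0.000455) and −0.38 ± 0.07 for IDH2 (edgeR adjusted p = 0.000783). IDH1 was lower by −0.28 ± 0.08 (edgeR adjusted p = 0.00881). In all, 7 of 44 members fell and 0 rose in this comparison, where the background is 22.5% of all genes (10.2% lower); the other 4 were CIT1 (−0.26), ATP1 (−0.25), KGD2 (−0.24) and SDH3 (−0.22). With the slopes, ACO1 (−0.36) and IDH2 (−0.27) were the 2 members called, against 7.92% of all genes. Without pseudo-wild-type replicate 16, 11 members were called, 3 higher and 8 lower. The controls are shared with the symmetric comparison, so these are not separate evidence.

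The symmetric strain was compared with the single-copy strains directly. For ACO1 the log2 difference was −0.08 ± 0.10 (edgeR adjusted p = 0.839) and for IDH2 −0.13 ± 0.09 (edgeR adjusted p = 0.63), so no further fall with the second mutant copy was detectable at this precision. None of the 44 members was called, against 2.26% of all genes; 6 had an unadjusted p under 0.05 and DESeq2 called 0. With the slopes 1 was higher, COX5B (0.54, edgeR adjusted p = 0.0028), and 1 lower, NDE1 (−0.22, edgeR adjusted p = 0.0475), against 6.83% of all genes. Between K56R on H3X and on H3Y 0 members were called, against 2.9% of all genes, with 9 at an unadjusted p under 0.05 and 1 by DESeq2, which called 3.35% of all genes; with the slopes CIT1 (−0.31) and QCR2 (−0.25) were lower on H3X, against 5.2%. LSC2 was at 66.6, 73.9 and 65.8 CPM in symmetric K56R against 42.7 to 55.4, median 48.8, in the pseudo-wild-type, and all 3 symmetric libraries were above every pseudo-wild-type library. Its log2 fold change was 0.50 ± 0.11 (edgeR adjusted p = 0.0028), and 0.34 with the slopes (edgeR adjusted p = 0.0439). With K56R on H3X it was at 60.4, 54.2 and 52.4 CPM and on H3Y at 62.5, 53.2 and 57.4, which overlapped the pseudo-wild-type, and it was not called there.

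**Figure D3:**
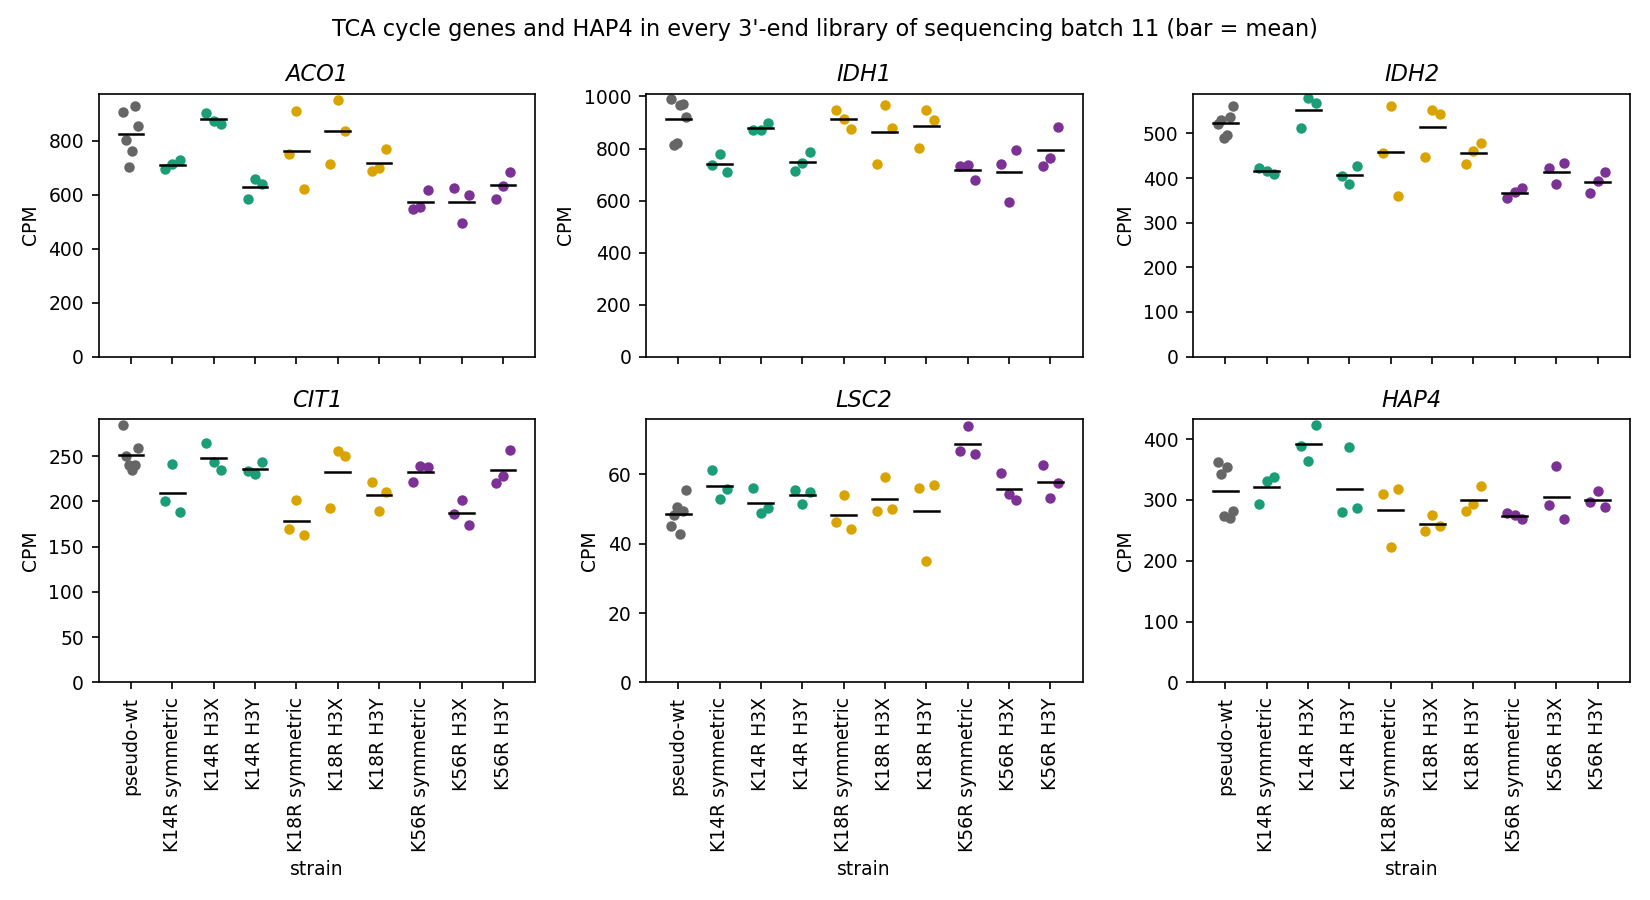
CPM of ACO1, IDH1, IDH2, CIT1, LSC2 and HAP4 in every 3′-end library of sequencing batch 11, by strain, with the axis from 0; points are libraries and the bar is their mean. ACO1 and IDH2 in the K56R strains all lie below the pseudo-wild-type libraries, which start at 704 and 489.7.

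Among respiratory chain members, NDI1, QCR8 and QCR6 rose in symmetric K56R. NDI1 was at 137, 131 and 157 CPM against 109 to 125, median 115, with no overlap, a log2 fold change of 0.29 ± 0.10 (edgeR adjusted p = 0.0273; 0.35 with the slopes). QCR8, a small subunit of complex III, was at 298, 324 and 307 CPM against 192 to 321, median 239.6, so the groups overlapped, with a log2 fold change of 0.33 ± 0.12 (edgeR adjusted p = 0.049). The QCR8 call was lost when any of 7 of the 9 libraries was left out, and the 40 genes around it had a median log2 fold change of 0.23. QCR6 rose by 0.28 ± 0.08 (edgeR adjusted p = 0.0184), which did not hold with the slopes (0.14). The genes around ACO1, IDH2 and LSC2 had medians of 0.16, 0.06 and 0.14. HAP4 itself was at 279, 276 and 268 CPM against 269.8 to 363, median 313, overlapping, with a log2 fold change of −0.20 ± 0.12 (edgeR adjusted p = 0.222). With replicates 3 and 4 of symmetric K56R summed, ACO1 (−0.52), IDH2 (−0.52), IDH1 (−0.39) and LSC2 (0.47) were the 4 members called. With the slopes as well, LSC2 (0.31, edgeR adjusted p = 0.0997) and IDH1 (−0.23, edgeR adjusted p = 0.115) were not called, and ACO1, IDH2, QCR8 and NDI1 were. Without K56R replicate 5, 4 members were called, 1 higher and 3 lower. With the slopes, 6 members were called, 4 higher and 2 lower, against 14.8% of all genes, and COX5B joined the rises (0.42, edgeR adjusted p = 0.036).

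Other genes of respiratory metabolism were counted in the same comparison, in lists chosen with results of these data known. The counts stand against 13.1% of all genes higher and 10.4% lower. Those of assembly factors, HAP regulators, mitochondrial ribosome genes, and glyoxylate cycle genes and TCA isozymes are below these shares. The rise among pyruvate dehydrogenase and carrier genes is below as well, and the fall among heme genes is near the share. Of 17 further subunits, dehydrogenases and isoforms, 5 rose and 0 fell, among them CYB2, the L-lactate cytochrome c oxidoreductase (1.38, edgeR adjusted p = 1.9e-05), NDE2, the second external NADH dehydrogenase (1.47, edgeR adjusted p = 0.00503), and STF1, which binds the ATP synthase inhibitor (0.44, edgeR adjusted p = 0.00523). Of 18 pyruvate dehydrogenase and carrier genes, 5 fell and 1 rose. YHM2, a citrate carrier, fell by 0.52 and LAT1, the pyruvate dehydrogenase acetyltransferase, fell by 0.37, while SFC1, the succinate-fumarate carrier, rose by 1.09 (edgeR adjusted p = 0.001, 0.00137 and 0.00095). Of 10 glyoxylate cycle genes and TCA isozymes, 1 rose and 0 fell, MLS1, malate synthase (0.63, edgeR adjusted p = 0.0046). Of 39 assembly factors, 1 rose and 0 fell, PET191 (0.59, edgeR adjusted p = 0.00456), which serves complex IV. Of 10 coenzyme Q genes, 2 fell and 0 rose, CAT5 (−0.47) and COQ10 (−0.40), and of 8 heme genes HEM13 fell alone (−0.41). Of 11 HAP and oxygen regulators, MGA2 alone rose (0.64), and of 51 mitochondrial ribosome genes 1 fell. CYB2, NDE2, STF1, SFC1, YHM2, LAT1, MLS1 and PET191 kept their calls with the slopes, and CAT5, COQ10, HEM13 and MGA2 did not. Summing replicates 3 and 4 of symmetric K56R lost the COQ10 call (edgeR adjusted p = 0.0739) and kept those of the other genes named here.

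Markers of the culture's state moved with K56R as well, and their part in the member results was not tested. Of 12 genes that mark glucose exhaustion, 6 rose and 0 fell, where 13.1% of all genes were higher (9 and 0 with the slopes, where 8.24% were higher), with HXT5, a hexose transporter of slowly growing cells, at 1.47 (edgeR adjusted p = 2.16e-08) and FBP1, of gluconeogenesis, at 1.03 (edgeR adjusted p = 0.00042). The list includes SFC1 and MLS1 as well. Their summed level was 543 to 564 CPM in symmetric K56R, 427 to 504 with K56R on H3X and 477 to 540.4 on H3Y, against 332 to 448 in the pseudo-wild-type. Symmetric K18R was at 368 to 595 CPM, its highest library above those of symmetric K56R. Of 4 genes that mark the retrograde response, 2 fell and 0 rose, where 10.4% of all genes were lower, ATO3 (−0.82, edgeR adjusted p = 0.0028) and DLD3 (−0.57, edgeR adjusted p = 0.0167), both lost with the slopes (edgeR adjusted p = 0.0581 and 0.152). Their sum was 449 to 531 CPM in symmetric K56R and 513 to 1099 in the pseudo-wild-type, which overlap. Of 5 MATa genes, 3 fell and 0 rose (MFA2 −0.62, AGA2 −0.54, STE2 −0.41), and the sum of the 5 was 725 to 751 CPM against 928 to 1073. That sum was 436 to 804 with K56R on H3X and 888 to 955 on H3Y. Symmetric K14R was lower than symmetric K56R, at 619 to 669, so a low sum was not particular to K56R. Summing replicates 3 and 4 of symmetric K56R kept the call of every marker gene named here. Adding the slopes to that fit lost AGA2 (edgeR adjusted p = 0.206), ATO3 and DLD3. Every library of the series held all 5 MATa transcripts, and the alpha-factor genes MF(ALPHA)1 and MF(ALPHA)2 reached at most 15.8 and 6.35 CPM in any library; STE3, the a-factor receptor of alpha cells, was counted in all of them, at most at 63.4 CPM.

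The full-length libraries gave a second view of K56R, with 2 symmetric libraries and a wider spread. LSC2 was at 363 and 627 CPM against 278 to 326, median 294, in the 5 pseudo-wild-type libraries, above all of them, with a log2 fold change of 0.83 ± 0.18 (edgeR adjusted p = 0.0067, and 1.36e-05 with the slopes). It rested on 1 library: without K56R replicate 2 it was 0.41 (edgeR adjusted p = 0.973). CYC1 was at 409 and 646 CPM against 140 to 343 and rose by 1.37 ± 0.36 (edgeR adjusted p = 0.0345; 0.96 with the slopes), a call lost without either K56R library, without pseudo-wild-type replicate 1, 2 or 3, and with replicates 2 and 3 both left out (edgeR adjusted p = 0.546). These were the 2 members called of 49, against 1.8% of all genes, and the member median was 0.39. The member fold changes had r = −0.70 with log2 coding length, so short members had the higher values. With the slopes 5 rose, LSC2, CYC1, SDH2 (0.82), COX5A (0.73) and CYC7 (1.02), against 9.82% of all genes. ACO1 (−0.44 ± 0.34, edgeR adjusted p = 0.648), IDH2 (−0.47 ± 0.30, edgeR adjusted p = 0.551) and IDH1 (−0.35 ± 0.22, edgeR adjusted p = 0.532) lay below 0 without passing the test. ACO1 was at 1024 and 821 CPM against 895 to 1317, and IDH2 at 459.7 and 336 against 322 to 561, so both overlapped. Within batch 4 as labelled, the one batch with both strains, a library of each gave a log2 ratio of −0.28 for ACO1, −0.28 for IDH2, 0.38 for LSC2 and 1.55 for CYC1, with no test. The median ratio was 0.90 for members under 500 bases, CYC1 among them, and 0.22 for longer ones. The length slopes of these libraries were 0.02 in K56R and 0.28 in the pseudo-wild-type. The pseudo-wild-type library there is one of the near-identical libraries labelled as 3 batches, so the match of batch is in doubt. The glucose-exhaustion sum was 596 and 612.5 CPM against 298 to 454, and the retrograde sum 532 and 247 against 620.3 to 869.

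**Figure D4:**
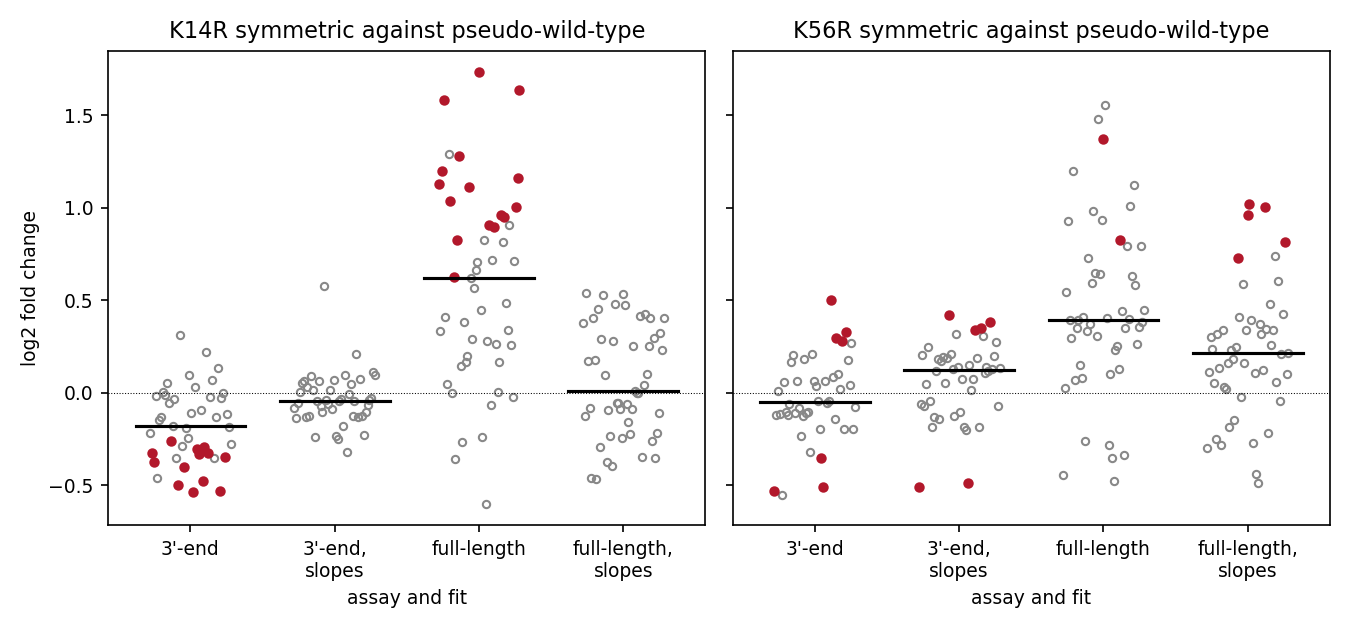
log2 fold change of each member in the symmetric K14R and K56R strains against the pseudo-wild-type, in both assays and both fits; red points passed the test and the bar is the median. For K14R the 13 falls of the 3′-end data and the 16 rises of the full-length data leave 0 calls with the library slopes.

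CIT1, the mitochondrial citrate synthase at the entry of the cycle, fell in the symmetric K18R strain. Lysine 18 lies in the H3 tail and is a site of acetylation. CIT1 was at 170.1, 202 and 162 CPM against 235 to 285, median 245, in the pseudo-wild-type, without overlap, and its log2 fold change was −0.48 ± 0.10 (edgeR adjusted p = 0.0214). It held with the slopes (−0.40, edgeR adjusted p = 0.0228), and without K18R replicate 5 it was −0.43 (edgeR adjusted p = 0.206). With K18R on a single copy CIT1 was not called (−0.19, edgeR adjusted p = 0.499). The other member called was ATP17, a subunit of the ATP synthase membrane sector, which was at 502, 305 and 2412 CPM against 296 to 487. The third of these libraries, replicate 5, stood alone. It had the lowest depth of the 3′-end data (750551 counts) and the lowest length slope (−0.35). ATP17 had a log2 fold change of 1.47 ± 0.36 (edgeR adjusted p = 0.0445), which fell to 0.25 with the slopes. So 1 member rose and 1 fell of 44, against 0.947% of all genes, and with the slopes CIT1 alone was called against 0.504%. Without replicate 5, 0 members were called, and without replicate 4, 10 were, 8 higher and 2 lower. Leaving out pseudo-wild-type replicate 14, 15, 18 or 19 left 1 call.

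In the symmetric K14R strain the TCA cycle genes were lower in the 3′-end libraries. Lysine 14 is another acetylated residue of the tail. Of 44 members, 13 fell and 0 rose, with a median of −0.18, against 35.7% of all genes (15.5% lower). Of the 10 TCA cycle genes, 7 fell, with a median of −0.30. FUM1 (fumarase) was at 107, 88.8 and 92.2 CPM against 128 to 148, median 141, with no overlap, a log2 fold change of −0.54 ± 0.12 (edgeR adjusted p = 0.00149). KGD2, a subunit of oxoglutarate dehydrogenase, was at 159, 168 and 152 CPM against 204 to 239, median 220.1, again with no overlap (−0.47 ± 0.08, edgeR adjusted p = 0.000131). COX5A was at 196, 173 and 180.4 CPM against 225 to 312, median 254, also apart (−0.50 ± 0.15, edgeR adjusted p = 0.00958). QCR7 of complex III (−0.53) and COX8 of complex IV (−0.40) fell too.

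The length slopes of the same libraries moved with K14R: 0.10 to 0.13 in the 3 symmetric libraries and −0.17 to 0.03 in the pseudo-wild-type. The slopes on adenine content did so too, at 2.77 to 4.13 and −5.85 to 1.30. The member fold changes had r = 0.07 with log2 coding length over the 44 members, and the 2 covariates were not fitted one at a time. With the slopes in the fit, 0 members were called, against 0.947% of all genes; FUM1 was then −0.25 (edgeR adjusted p = 0.475), KGD2 −0.32 (edgeR adjusted p = 0.124) and COX5A −0.10 (edgeR adjusted p = 0.832). Without K14R replicate 5, 6 members fell. With K14R on a single copy, 6 of 44 members fell and 0 rose, against 28.4% of all genes (11.3% lower), led by FUM1 (−0.32), SDH4, the membrane anchor of complex II (−0.31), and LSC1, the alpha subunit of succinyl-CoA ligase (−0.30). With the slopes none of them was called (0.242% of all genes), and without pseudo-wild-type replicate 16, 11 were called, 4 higher and 7 lower. COX5B was higher in the symmetric than in the single-copy strains only with the slopes (0.57, edgeR adjusted p = 0.00351; 0.50, edgeR adjusted p = 0.295 without), where 0.968% of all genes were called.

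Between the single-copy K14R strains, IDH2 differed by the copy that carried the mutation. It was at 512, 578 and 569 CPM with K14R on H3X and at 405, 388 and 427 on H3Y, with no overlap, and the log2 difference was 0.44 ± 0.10 (edgeR adjusted p = 0.0399). It was the 1 member called of 44, against 0.464% of all genes. The call was lost when any 1 of the 6 libraries was left out, and with the slopes (0.32, edgeR adjusted p = 0.0642).

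In the full-length libraries the K14R values went the other way. Of 49 members 16 rose and 0 fell, with a median of 0.62, against 20.2% of all genes (14.5% higher). CYC1 was at 327 and 1057 CPM against 140 to 343 in the pseudo-wild-type, with a log2 fold change of 1.73 ± 0.36 (edgeR adjusted p = 0.00286). SDH4 was at 105 and 353 CPM against 49.3 to 64.7, and ATP7, of the ATP synthase stalk, at 266 and 719 against 159.8 to 233. ATP15 and ATP14, further ATP synthase subunits, rose too, ATP15 by 1.58. The second library was the higher in each case, and it had a length slope of −0.37 and a glucose-exhaustion sum of 803 CPM against 298 to 454 in the pseudo-wild-type. Without that library 0 members were called, and with the slopes 0 were called, against 0.314% of all genes. Without pseudo-wild-type replicate 1, 10 were called, and with replicates 2 and 3 left out, 2. Within batch 2 as labelled, 1 library of each strain gave a member median of 0.28, with no test and with the same doubt on the batch. The median there was 0.71 for members under 500 bases, 0.036 for longer ones and 0.039 for all genes. The length slopes of these libraries were 0.05 in K14R and 0.28 in the pseudo-wild-type. The direction of the K14R difference in members thus was not the same in the 2 assays.

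**Figure D5:**
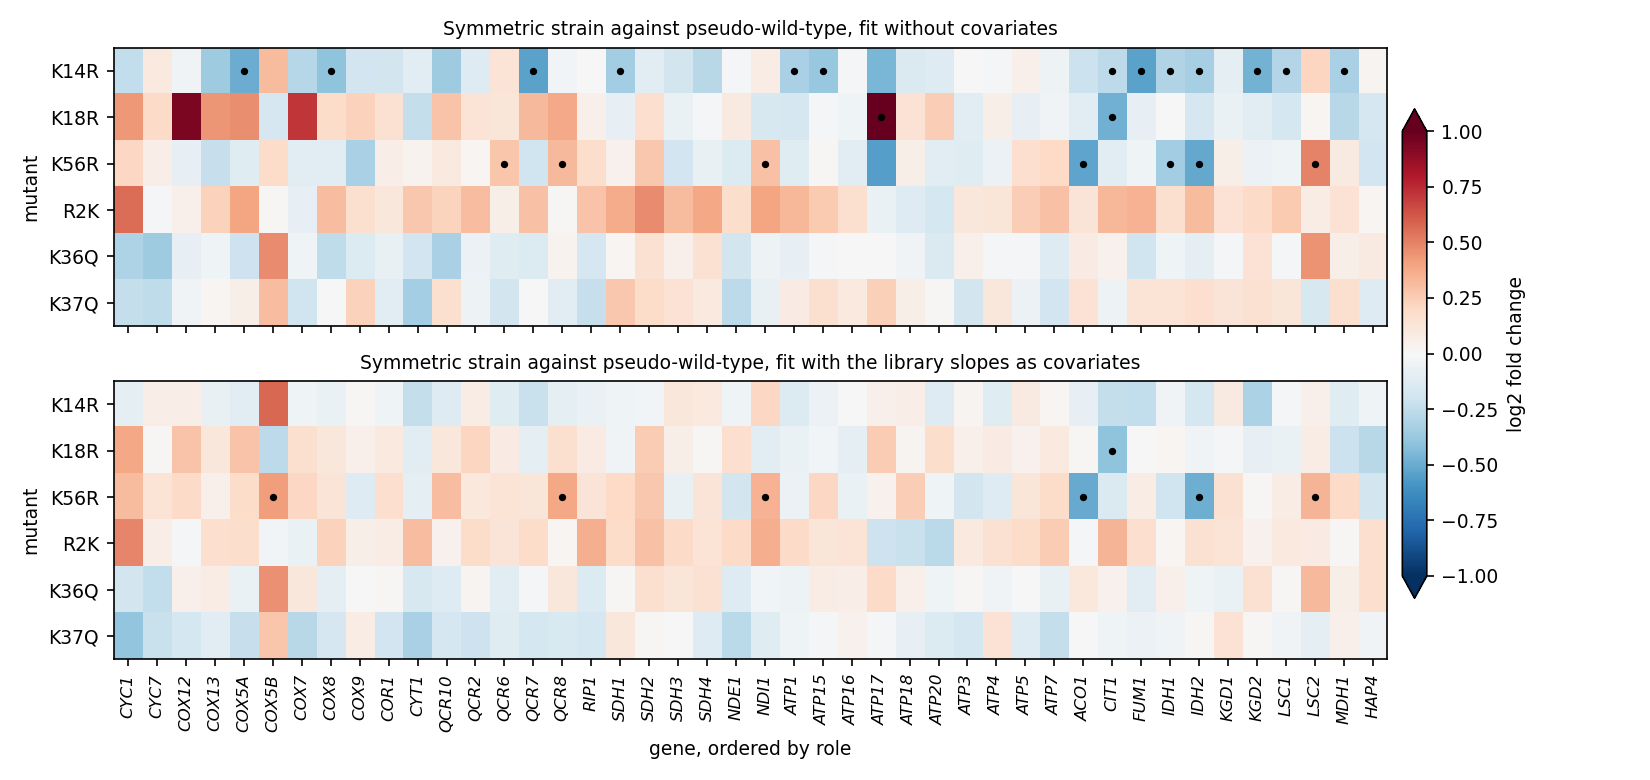
log2 fold change of the 44 members tested in the 3′-end data, symmetric strain against pseudo-wild-type, for 6 mutants, from the fit without covariates (top) and with the library slopes (bottom); a dot marks a gene that passed the test. ACO1, IDH2, LSC2, NDI1 and QCR8 in K56R and CIT1 in K18R are marked in both.

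Complex IV genes were higher with K37Q on a single copy, again along with the length slopes. Of 44 members, 13 rose and 1 fell, with a median of 0.17, against 41.5% of all genes (20% higher). All 7 complex IV genes tested rose, and 12 of the 18 members under 500 bases did. COX13 was at 535, 411 and 510.2 CPM with K37Q on H3X and 508, 395 and 472 on H3Y, against 309 to 393, median 338, in the pseudo-wild-type, with no overlap (0.45 ± 0.09, edgeR adjusted p = 0.00044). ATP17 was at 899, 384 and 628 CPM on H3X and 650.1, 418 and 556 on H3Y, against 295 to 368 (0.79 ± 0.13, edgeR adjusted p = 5.3e-05). COX8 rose by 0.40 and ATP3, the gamma subunit of the ATP synthase, fell by 0.19. The length slopes were −0.30 to 0.01 on H3X and −0.16 to −0.08 on H3Y, against −0.03 to 0.16 in the pseudo-wild-type. With the slopes 0 members were called (0.1% of all genes), and COX8 turned to −0.0105 and COX5A to −0.17. Without H3X replicate 3, H3X replicate 5 or H3Y replicate 3, 9, 8 and 9 members were called.

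CYC1 was higher in symmetric R2K than in symmetric K36Q. Arginine 2 is near the end of the tail. CYC1 was at 402, 399 and 504 CPM in symmetric R2K, at 323, 196 and 197 in symmetric K36Q, at 227, 298 and 223 in symmetric K37Q and at 229 to 353, median 309, in the pseudo-wild-type. The R2K libraries were above all of these. Against symmetric K36Q, CYC1 differed by 0.86 ± 0.20 (edgeR adjusted p = 0.0313), and COX8 (0.56), NDI1 (0.45), ATP7 (0.42) and RIP1, the iron-sulfur subunit of complex III (0.45), were higher too. That made 5 of 44 members higher and 0 lower, against 3.41% of all genes (1.69% higher). With the slopes 0 were called (0.0803%), and 0 were called without R2K replicate 4 or 5 or K36Q replicate 4 or 5, while leaving out R2K replicate 3 gave 9 and K36Q replicate 3 gave 11. Against symmetric K37Q, 0 members were called without covariates (13 at an unadjusted p under 0.05, 6 by DESeq2, which called 1.16% of all genes; 0.1% of all genes by edgeR, 0.0602% higher and 0.0401% lower) and 8 were higher with the slopes (3.27% of all genes), CYC1 among them (0.88, edgeR adjusted p = 0.0145) beside CYT1, cytochrome c1 (0.63, edgeR adjusted p = 0.0102), and RIP1 (0.54, edgeR adjusted p = 0.00632). Against the pseudo-wild-type, symmetric R2K had a member median of 0.21 with 39 of 44 members above 0, but 0 called, 20 at an unadjusted p under 0.05 and 0 by DESeq2. No gene of the whole table was called there. The counts above 0 and at an unadjusted p have no share of all genes beside them, so they do not set members apart.

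The symmetric strains of batch 11 were compared with each other. K14R against K18R had 17 of 44 members lower and 1 higher, against 33.8% of all genes (17.7% lower), among them ATP17 (−1.93), COX12 (−0.97), COX5A (−0.96), QCR7 (−0.86) and COX7. With the slopes COX5B alone was called, higher in K14R (0.84, edgeR adjusted p = 0.013; 0.48 without covariates), against 0.988% of all genes. COX5B was at 56.5, 81.1 and 57.9 CPM in K14R and 41.1, 45.3 and 63.3 in K18R, which overlap. Without K14R replicate 4, K18R replicate 3 or K18R replicate 5, 11 members were called in each case. K14R against K56R had 5 lower and 0 higher (8.06% of all genes), FUM1 (−0.49), KGD2 (−0.42), MDH1, the mitochondrial malate dehydrogenase (−0.41), SDH1 (−0.39) and ATP15 (−0.38). KGD2 held with the slopes, where 4 were lower and 2, ACO1 (0.42) and IDH2 (0.31), higher (11.3% of all genes). Leaving out any 1 of those 6 libraries left 1 or 2 calls.

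K18R against K56R showed ACO1 and IDH2 from another side, though the K56R libraries are the same. ACO1 was at 751, 909.8 and 623 CPM in K18R, all above the K56R libraries (log2 difference 0.42 ± 0.12, edgeR adjusted p = 0.0107; 0.52 with the slopes), and IDH2 at 455, 561 and 359, which overlapped them (0.34 ± 0.11, edgeR adjusted p = 0.0182; 0.45 with the slopes). The ACO1 call was lost without K18R replicate 4 and the IDH2 call without that library or K56R replicate 3. IDH1 was higher by 0.35. LSC2 (−0.48), NDI1 (−0.46), CIT1 (−0.37) and MDH1 (−0.36) were lower in K18R. Short genes made up most of the other rises: ATP17 (2.02), COX12 (1.02), COX7 (0.83), COX13 (0.67) and COX5A (0.59), each lost with the slopes, where COX7 turned to −0.049. In all 9 members were higher and 4 lower, against 26.4% of all genes, and with the slopes 3 and 3 (11.8%). Without K18R replicate 5, 6 were called.

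HAP4 was not called in any of the 30 3′-end or 18 full-length comparisons. Its log2 differences ran from −0.20 to 0.30 in the 3′-end data (smallest edgeR adjusted p = 0.176) and from −0.99 to 0.36 in the full-length data (smallest edgeR adjusted p = 0.112). The lowest full-length value, in the delta4-20 deletion of the H3 tail, came from strains with the change on a single copy. By strain, its 3′-end level was lowest with K18R on H3X (261 ± 13.5 CPM, SD, n = 3) and highest with K14R on H3X (392 ± 29.5 CPM, SD, n = 3), with the pseudo-wild-type at 231 to 329.9 in batch 10 and 269.8 to 363 in batch 11. CYC7 was not called either, between −0.45 and 0.46 in the 3′-end data. CYC1 and COX5A were called in 2 and 4 of the 30, in both directions, and COX5B in 2, both higher. In the full-length data CYC1 was called higher in 2 of 18, K14R and K56R, and COX5A in 1, K14R (1.11), where its 3′-end value had fallen, while CYC7 and COX5B were called in none. With K37Q on a single copy, COX5B was at 0.39 (edgeR adjusted p = 0.0279) and COX5A at 0.33 (edgeR adjusted p = 0.0483), a call lost in 9 of 12 leave-outs. The aerobic and low-oxygen forms were not tested against each other.

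The remaining comparisons called few members. In the 3′-end data 19 of the 30 comparisons had 0 members called by edgeR, with 0 to 20 members at an unadjusted p under 0.05. DESeq2 also called 0 in 14 of the 19 and at most 6 in the rest. In the full-length data 15 of 18 had 0, with 0 to 25 at an unadjusted p under 0.05, and DESeq2 called 0 in 14 of them. The exception was symmetric S10A, which removes the phosphorylated serine of the tail. Its member median was 0.60 with 47 of 49 members above 0 and 25 at an unadjusted p under 0.05, edgeR called 0, against 0.0314% of all genes, and DESeq2 15, against 21.6% of the genes it gave an adjusted p. Within batches 3 and 8 as labelled, its member median was 0.61 and 0.54, and the median of all genes was 0.0041 and 0. In batch 3 the median was 1.12 for members under 500 bases and 0.25 for longer ones. In batch 8 these medians were 0.55 and 0.54. The batch 3 ratio was against one of the near-identical pseudo-wild-type libraries, whose batch is in doubt. With the slopes over all batches the member median was 0.17. The counts of members above 0 and at an unadjusted p have no share of all genes beside them. LSC2 rose in symmetric K36Q in the full-length data, at 500.3 and 535 CPM against 278 to 326 (0.77 ± 0.17, edgeR adjusted p = 0.00529; 0.88 with the slopes), the 1 member called, against 7.32% of all genes. It was not called without K36Q replicate 2 (0.67, edgeR adjusted p = 0.268) or with pseudo-wild-type replicates 2 and 3 left out (0.74, edgeR adjusted p = 0.0572), and with the slopes FUM1 was lower as well (−0.80, 4.5% of all genes). LSC2 was also higher with delta4-20 on a single copy in the fit with slopes (0.75, edgeR adjusted p = 0.0275; 1.47% of all genes), and not without them (0.55, edgeR adjusted p = 0.327). The glucose-exhaustion sum was 606 and 653.5 CPM in symmetric K36Q, and 5 of its 12 genes rose, with 0 called in the fit with slopes. K4Q, K56Q and K4A shared no batch or strain with a pseudo-wild-type library and were not compared with one.

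The members varied together from library to library within a strain in batch 10, and in batch 11 mostly within some of their roles. After removing strain means, the mean pairwise correlation of log2 CPM among the 44 members was 0.29 in batch 10 and 0.10 in batch 11, against 0.003 among all genes tested, and 0.24 and 0.09 after the slopes were removed as well. The mean over all genes is of signed values, in which positive and negative pairs cancel. Sets of like level or length were not compared, so these values do not set members apart from such genes. In batch 10 it was highest among the 4 complex II genes (0.64) and the NADH dehydrogenases (0.52). Among complex IV genes it was 0.42, and 0.145 after the slopes were removed. In batch 11 it was highest among complex IV genes (0.60), and 0.145 there after the slopes were removed. Among TCA cycle genes it was 0.35, and 0.152 after the slopes were removed. With the other members, TCA cycle genes had a mean correlation of 0.004 and complex IV genes of 0.024. Within complex III and complex V it was 0.13 and 0.137, near their values with the other members (0.078 and 0.098). After the slopes were removed it was 0.278 and 0.219 within these complexes. HAP4 had a mean correlation with the other members of −0.02 in batch 10 and −0.07 in batch 11, and LSC2 of −0.17 and −0.12. Once the slopes were removed, HAP4 was at −0.001 and −0.073, and LSC2 was near 0 at 0.035 and −0.038. These values describe 33 libraries a batch that share depth and handling.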

How the data were processed

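RNA was sequenced from yeast strains with mutant histone H3. Per the file headers, the authors deposited raw counts per gene, made with featureCounts 1.4.6-p2: strand-specific counts of read pairs for the full-length libraries, with duplicates ignored, and strand-specific counts per transcript for the 3′-end libraries, both with a minimum mapping quality of 30. Per the submitters' processing notes, TopHat2 2.0.12 and the sacCer3 build were used. The 49 members and all gene lists were chosen with earlier results of these data known. Total counts were 750551 to 5156160 per 3′-end library and 542727 to 21573351 per full-length library, of which members took 1.12 to 1.59% and 1.08 to 1.72%.

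Counts were tested with edgeR 4.0.16 in R 4.3.3 (TMM normalisation, its low-count filter, quasi-likelihood test, Benjamini-Hochberg adjustment over all genes tested, called at 0.05). The 3′-end batches were fitted separately, over 4984 and 4961 genes, and the full-length libraries together, over 6376 genes, with batch as a term. That full-length fit took all 98 libraries singly, the near-identical pseudo-wild-type ones included. CPM are edgeR's counts scaled to the TMM-normalised library. Counts of members above 0, or at an unadjusted p under 0.05, are given without the share of all genes there. "On one copy" is the mean of the H3X and H3Y strains. A fit with library slopes, added after the data were seen, has as covariates each library's slope of log2 CPM on log2 coding length and on adenine content, over the genes that are not members. Other alternatives were DESeq2 1.42.0, its size factors, no filter, a replicate block, near-identical libraries summed or left out, and each replicate left out. Replicate numbers paired the samples, by deviations that correlated above 0.1 in all pairs, for 2 comparisons, symmetric K36Q with K37Q and K56R on H3X with H3Y, and for symmetric K36Q with one of its 2 single-copy strains (H3X); the block left 0 members called in all of them. The scripts were tested on simulated counts in which all genes had 1 dispersion. For symmetric K56R in the 3′-end fit, 48% of true log2 changes of 0.5 and 98% of changes of 1 were called. For symmetric K14R in the full-length fit, 2% and 29% were called, so 0 calls there can miss changes of these sizes. Genes named are HAP4, CYC1, CYC7, COX5A and COX5B always; up to 5 called members with the largest rise and 5 with the largest fall in each comparison of a symmetric strain with the pseudo-wild-type or of 2 symmetric strains; up to 3 each way in other comparisons; and, from each list, up to 3 called genes of smallest p. CIT1, ATP1, KGD2 and SDH3 with K56R on one copy, ACO1, IDH1 and IDH2 in K18R against K56R, and members called with the slopes alone, fall outside that rule and were chosen after their values were seen. A sequence withheld from this text is not reported here.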

Additional observations from a re-analysis of the deposited data

Results flagged for a closer look

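COX13, a complex IV subunit, stood alone in 1 pseudo-wild-type library of the 3′-end data: replicate 17 of batch 11 was at 611.8 CPM, with the next at 471 and the lowest at 419. It was 1 of 58 gene and group pairs tested for a sample far from the rest, and chance flags about 1 in 20. Replicate 17 also had the lowest length slope of these pseudo-wild-type libraries (−0.17). Its median deviation of members under 500 bases was the highest of them (0.26), and COX13 has 390 coding bases, so the flag may not be particular to COX13. The other values here are differences between 2 mutants of batch 11, tested directly, that held in the fit with library slopes. COX5B was higher in symmetric K14R than in K18R by 0.48 (0.84 with the slopes). KGD2 was lower in symmetric K14R than in K56R, at −0.42 (−0.33 with the slopes). Between symmetric K18R and K56R, ACO1 differed by 0.42 (0.52), IDH2 by 0.34 (0.45), MDH1 by −0.36 (−0.41) and NDI1 by −0.46 (−0.46). Leaving out 1 of the 6 libraries lost the COX5B call in 3 fits, MDH1 in 3, IDH2 in 2 and ACO1 in 1, and KGD2 and NDI1 in 0. The K18R libraries include the shallowest 3′-end library, replicate 5.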

How the results depend on the processing

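The fit with library slopes changed the most. Of 79 named called values it kept 27, lost 49 and turned 3: COX7 in K18R against K56R (−0.049, and −0.040 with K56R replicates 3 and 4 summed too), and COX8 (−0.0105) and COX5A (−0.17) with K37Q on one copy. DESeq2 kept 77, its size factors 75 and no filter 76. With slopes, members called were 0 for 3′-end K14R H3X against H3Y, K14R on one copy, symmetric K14R, K37Q on one copy and R2K against K36Q, and for full-length K14R; 1 for K14R against K18R, K14R symmetric against one copy, K18R symmetric and full-length delta4-20; 2 for K56R on one copy, symmetric against one copy, H3X against H3Y and full-length K36Q; 5 for full-length K56R, 6 for K18R against K56R and 8 for R2K against K37Q. DESeq2 gave 1 for K36Q against K37Q (6.56% of all genes) and for K56R H3X against H3Y (3.35%). It gave 2 for K14R H3X against H3Y (0.484%), K18R symmetric against one copy (2.3%) and full-length K36Q (14.9%). Full-length K56R had 4 (2.46%) and K37Q symmetric against one copy 5 (5.77%). Symmetric K18R and R2K against K37Q had 6 each (4.92% and 1.16%). R2K against K36Q had 10 (8.68%) and full-length S10A 15 (21.6%). These shares are of the genes DESeq2 gave an adjusted p. Without the filter K14R H3X against H3Y gave 0. With K56R replicates summed, symmetric K56R gave 4 (4 with slopes too) and K14R against K56R 1; with slopes as well, K18R against K56R gave 5 and K56R symmetric against one copy 1. With pseudo-wild-type replicates 2 and 3 left out, full-length K14R gave 2, K36Q 0 and K56R 1. With the replicate block, where numbers need not pair samples, K14R H3X against H3Y gave 0 and R2K against K37Q 3, and R2K against K36Q 4, K14R against K18R 16, K14R against K56R 4 and K18R against K56R 13. The cause was not tested: the fit with slopes adds length and adenine content at once.

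Leaving out 1 replicate moved members called between 0 and 0 for K14R H3X against H3Y, 5 and 11 for K14R on one copy, 11 and 18 for K14R against K18R, 1 and 2 for K14R against K56R, 6 and 16 for symmetric K14R, 0 and 23 for full-length K14R, 6 and 16 for K18R against K56R, 0 and 8 for K18R symmetric against one copy, 0 and 10 for symmetric K18R, 0 and 1 for K36Q against K37Q, K36Q symmetric, K36Q symmetric against one copy and full-length K36Q, 8 and 20 for K37Q on one copy, 0 and 7 for K37Q symmetric against one copy, 5 and 11 for K56R on one copy, 4 and 9 for symmetric K56R, 0 and 3 for full-length K56R, 0 and 11 for R2K against K36Q and 0 and 2 for R2K symmetric against one copy. Full-length replicates were left out for symmetric K14R, K36Q and K56R alone, with the dispersions of the whole fit. From the leave-out fits only members and listed genes were kept, so their counts have no share of all genes beside them. The full-length spread limits what could be called there: its biological coefficient of variation was 0.23, against 0.14 and 0.13 in the 3′-end batches.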
